A study of Mus musculus with 9 samples.

Results

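The precursor genes of 10 hypothalamic neuropeptides of appetite and water balance were followed through whole-brain RNA-seq of control mice, diabetic mice with neuropathic pain and diabetic mice given baclofen. The genes were picked by name from the 53465 genes of the count table: Avp, Oxt, Gal, Trh, Cartpt, Pomc, Agrp, Npy, Hcrt and Pmch. Of these, 7 passed the filter on low counts among the 18501 genes that did, while Oxt, Hcrt and Pmch fell below it. There were 9 libraries, 3 for each group, from male C57BL/6 mice that were 7 weeks old when the experiment began. CON mice, the controls, ate standard chow and received saline. DNP mice were fed 60% fat for 4 weeks, then injected on 7 days with streptozotocin (50 mg/kg), a toxin of the insulin-producing beta cells, and later given saline. BAC mice had the same diet and streptozotocin, followed by baclofen, which activates GABA-B receptors, at 8 mg/kg on 7 days. Diabetic animals entered the study only if their fasting glucose had reached 16.7 mmol/L and their pain thresholds were reduced 4 weeks after streptozotocin, so the DNP and BAC groups represent mice selected for both traits. Whether the mice were fed or fasted at collection is not given in the sources used here.

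Neuropeptides are made as precursors, cut to size by proteases and stored in dense-core granules. In the hypothalamus, vasopressin neurons respond to plasma osmolality and release a hormone that retains water in the kidney, and neighbouring oxytocin neurons also reach the posterior pituitary. In the arcuate nucleus, neurons that make AgRP and NPY promote feeding when insulin and leptin are low, and neurons that make POMC and CART restrain it. Untreated diabetes with a lack of insulin causes thirst, loss of water in the urine and increased food intake, and these peptides are therefore commonly examined in diabetic rodents. Several of them are not limited to the hypothalamus: NPY is abundant in cortical interneurons, galanin in the locus coeruleus, and POMC in the pituitary.

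The libraries held 13107382 to 16008129 counts each, and the labelled whole brain was unevenly represented in them. Markers of brainstem and spinal cord, scored as the mean log2 CPM (counts relative to library size, with TMM scaling) of the list minus its mean over all libraries, stood at 3.57 in DNP 1, 4.70 in BAC 1 and 4.78 in BAC 3, and between -2.62 and -1.90 in the other libraries. Here and below, the number after a group is the replicate. The summed CPM of the forebrain markers was 65.4 in CON 2, 67.5 in DNP 1, 31.2 in BAC 1 and 40.3 in BAC 3, and 403 to 577 in the rest. CON 2 had the highest cerebellar score (3.88). BAC 1 came next (2.84), and the other libraries stood between -3.33 and 1.58. Of the 12 regulators that define hypothalamic territories, 5 passed the filter. Six6 was at 0 in every library but BAC 3, which had 2 counts, Rax had 0 to 7 counts and Nr5a1 0 to 10. Other regulators of the list, which neurons outside the hypothalamus also express, had more counts in some libraries, such as Otp (0 to 384), Six3 (7 to 399), Isl1 (0 to 164) and Tbx3 (32 to 71). Markers of blood moved with the groups, their summed CPM being 188 to 218 in CON, 477 to 683 in DNP and 471 to 735 in BAC. In such bulk tissue, fewer cells of a type and less RNA per cell cannot be told apart.

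Read per length as FPKM, Npy was by far the most abundant of these transcripts, with a median over the 9 libraries of 81.1 and a range of 16.4 to 136. Cartpt (median FPKM 4.00), Trh (3.49) and Avp (2.24) followed, and their ranges over libraries, 0.283 to 12.6, 0.0521 to 19.7 and 0.624 to 19.4, overlapped almost entirely. Gal had a median FPKM of 1.21 and ranged from 0 to 12.8. Pomc (0.645), Oxt (0.509) and Agrp (0.505) had medians close to each other, and Pmch (0.182) and Hcrt (0.124) were lowest. Apart from the step below Npy, no neighbours in this order differed beyond the spread between libraries. Of the 10 genes, 7 had their lowest CPM, alone or tied, in a CON library, and 1, Agrp, had its highest there. Of the 7 tested genes, 4 were lowest in CON 2, the library with the highest cerebellar score. The minima of Gal, Oxt, Hcrt and Pmch were at 0 counts. These numbers were not set against the share over all genes and describe single libraries.

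**Figure D1:**
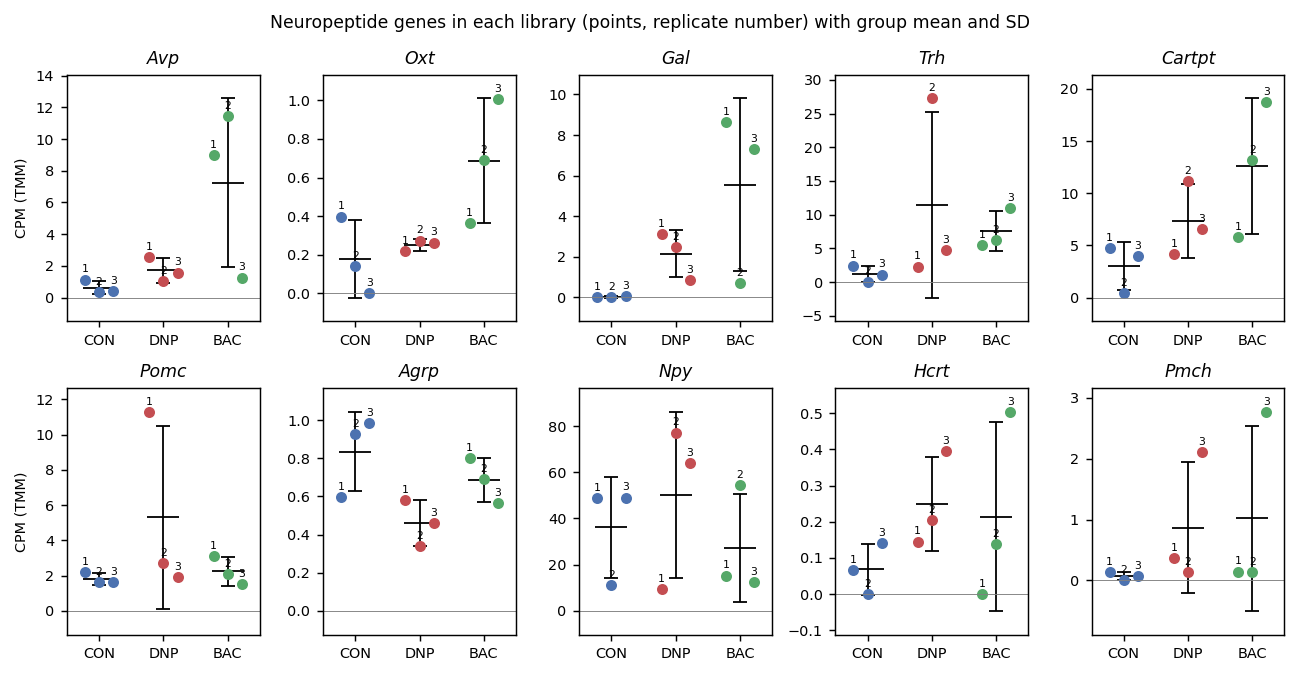
Each panel plots 1 neuropeptide gene as CPM (TMM, linear axis) in the 3 libraries of CON, DNP and BAC; points carry the replicate number, and bars are the mean and SD of 3 libraries. Gal lies at or near 0 in the CON libraries and at 0.690 CPM or more in each DNP and BAC library, whereas 1 library sets the DNP mean of Trh (DNP 2) and of Pomc (DNP 1).

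Among the 7 tested genes, Gal, Avp, Trh and Cartpt had the largest positive fold changes in BAC versus CON and in the mean of the diabetic groups versus CON, Agrp was lowest in DNP, and Npy and Pomc followed no shared direction. None of the 7 tested genes had an adjusted p under 0.05 by edgeR's quasi-likelihood test in DNP versus CON, BAC versus DNP, BAC versus CON or the mean of both diabetic groups versus CON, and neither did any gene of the table (0% called in each comparison). Gal, nearly absent from CON, entered the tests only through its diabetic libraries, so its direction against CON was fixed in advance. Avp, with 17, 5 and 6 counts in CON, also needed diabetic libraries to pass the filter, which favours a higher value against CON. To a lesser degree this holds for Trh and Cartpt, with 1 and 6 counts in CON 2. At an unadjusted p under 0.05, Gal, Trh and Pomc were higher in DNP versus CON, where 5.71% of all genes were higher and 5.46% lower. In BAC versus CON, Gal, Avp, Cartpt and Trh were higher at this level, against 4.46% of all genes. The mean of the diabetic groups gave the same 4 genes, against 6.42% higher and 5.42% lower over all genes, and BAC versus DNP gave Avp alone, against 1.37% higher. With DESeq2, 1 of the 7 genes (Gal) had an adjusted p under 0.05 in DNP versus CON, where 1.85% of all genes did, 2 (Gal and Avp) in BAC versus CON (0.552%), 3 (Gal, Avp and Trh) in the diabetic groups versus CON (2.05%) and 0 in BAC versus DNP (0.0379%). Limma on log2 FPKM called 0 of them in each comparison.

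In DNP versus CON, the ranges of the libraries were separate for Gal (higher) and Agrp (lower), beside 9.59% of genes higher and 8.63% lower. Agrp had at most 8 counts in a DNP library and passed the filter only through CON and BAC libraries, which favours a lower DNP value. In BAC versus CON they did not overlap for Gal, Avp, Cartpt and Trh, all higher, beside 7.21% of genes. In BAC versus DNP the libraries overlapped for each of the 7 genes, beside 3.38% of genes that were higher and 3.41% that were lower without overlap. Over all 6 diabetic libraries, Gal alone lay above CON without overlap, beside 3.82% of genes. The comparisons with CON use the same CON libraries.

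**Figure D2:**
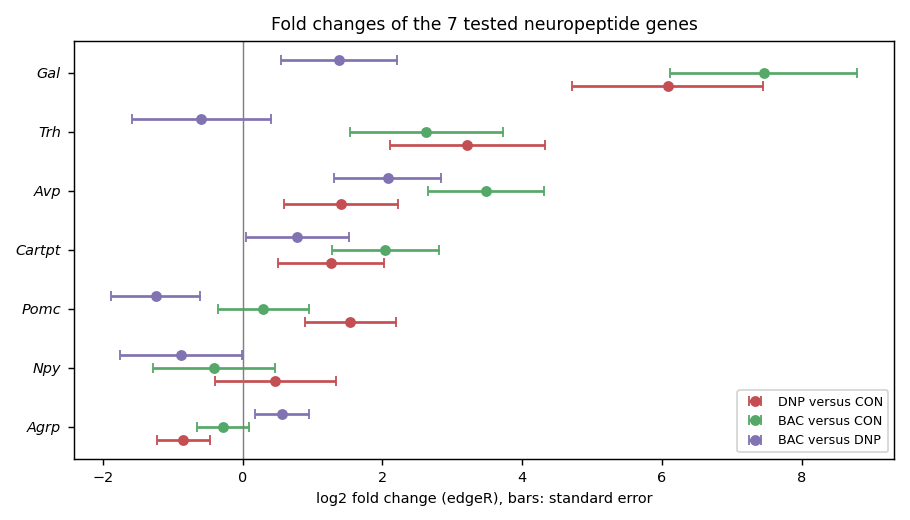
The log2 fold change (horizontal axis) of the 7 tested genes is plotted with its standard error from edgeR for DNP versus CON, BAC versus CON and BAC versus DNP. Gal, Trh, Avp and Cartpt lie to the right of 0 in both comparisons with CON, Agrp lies to the left in both, and BAC versus DNP ranges from -1.25 for Pomc to 2.08 for Avp.

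The promoter letters of the 4 genes with an unadjusted p under 0.05 in the diabetic groups versus CON are shown as a description. None of the 4 had an adjusted p under 0.05 by edgeR. They did not rise in the same libraries: the highest was BAC 2 for Avp, BAC 1 for Gal, DNP 2 for Trh and BAC 3 for Cartpt. Of the 10 genes, 9 had a promoter window in RefSeq (GRCm38.p6), and Agrp was not among them. The sequences run 5′ to 3′ on the coding strand, which is the minus strand for all 4, and end at the last base before the RefSeq start, except for Cartpt, where the 24 bases around the match are given because an annotated exon overlaps the window. The windows are chr2:130582589-130582838 for Avp, chr19:3414545-3414794 for Gal, chr6:92244651-92244900 for Trh and chr13:99900780-99900803 for Cartpt. Capitals mark a match to an E-box (CACGTG) and an AP-1 site (TGANTCA) in Avp and to a cAMP response element, CRE (TGACGTCA), in Cartpt.
Avp: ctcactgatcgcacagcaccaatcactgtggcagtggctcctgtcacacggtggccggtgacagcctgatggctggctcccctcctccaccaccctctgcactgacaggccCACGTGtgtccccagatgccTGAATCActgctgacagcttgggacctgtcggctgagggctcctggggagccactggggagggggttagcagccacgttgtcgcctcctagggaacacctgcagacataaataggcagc
Gal: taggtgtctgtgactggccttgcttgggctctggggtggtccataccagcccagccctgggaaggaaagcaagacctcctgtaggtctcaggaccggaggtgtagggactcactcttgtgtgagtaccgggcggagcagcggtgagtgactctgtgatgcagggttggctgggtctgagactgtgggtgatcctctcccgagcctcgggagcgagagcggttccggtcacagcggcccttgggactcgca
Trh: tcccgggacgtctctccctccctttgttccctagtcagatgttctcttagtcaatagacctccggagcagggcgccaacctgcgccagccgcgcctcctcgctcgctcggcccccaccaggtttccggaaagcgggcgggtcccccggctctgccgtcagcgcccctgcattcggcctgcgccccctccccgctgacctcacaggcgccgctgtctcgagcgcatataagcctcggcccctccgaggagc
Cartpt: gcgggcatTGACGTCAaacggcag
Both strands of the 250 bases before the start were searched. The E-box of Avp begins 139 bases and its AP-1 site 119 bases upstream of the start, and the CRE of Cartpt begins 112 bases upstream. Trh held the CRE core (TGACG) on the other strand, 96 bases upstream, which is left in lower case, and Gal held none of the motifs. Each CRE holds a core on each strand. Over 32851 RefSeq windows, an E-box was found in 6.02%, an AP-1 site in 6.75%, a CRE in 1.55%, a CRE core in 17.8% and a TATA box (TATAAA) in 12.4%. Among the other genes with a window, Pmch held an AP-1 site and a TATA box, Pomc and Hcrt held a TATA box, and Oxt and Npy held no match. No motif was found in all 4 of the printed genes. These matches describe the letters and say nothing of a factor's binding.

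Avp encodes the precursor of vasopressin, the antidiuretic hormone. In GRCm38, as for all positions here, it lies on chr2:130580620-130582554 (minus strand, 3 exons, ENSMUSG00000037727), with 3565 bases between it and Oxt, which is transcribed towards it. Avp was counted 17, 5 and 6 times in the CON libraries, 35, 15 and 24 times in DNP and 124, 166 and 20 times in BAC. The means were 0.635 ± 0.428 CPM in CON, 1.71 ± 0.764 in DNP and 7.24 ± 5.32 in BAC (n = 3 each, ± SD). BAC 1 and BAC 2 stood above all other libraries, BAC 3 lay within the DNP range, and CON 1 lay above DNP 2. The log2 fold change by edgeR was 1.41 ± 0.82 (SE) in DNP versus CON (adjusted p = 0.548). It was 3.48 ± 0.83 in BAC versus CON (adjusted p = 0.628), without overlap of the libraries. Avp passed the filter on low counts only with the help of diabetic libraries, which favours a higher value against CON. In BAC versus DNP it was 2.08 ± 0.77 (adjusted p = 0.998), a difference set by BAC 1 and BAC 2.

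The BAC libraries rich in Avp differed from each other in their tissue markers. Sim1, a regulator needed for vasopressin and oxytocin neurons to form, had 19 counts in BAC 2, 0 in BAC 1 and 4 in BAC 3, and at most 3 in the CON and DNP libraries. The summed CPM of the 12 hypothalamic regulators was 8.28 in BAC 1, 47.2 in BAC 2 and 29.1 in BAC 3. A covariate could be built only from the 5 regulators past the filter, Isl1, Nkx2-1, Otp, Six3 and Tbx3, without Sim1. With their score as a covariate, Avp in BAC versus DNP was 2.11 ± 0.80 (edgeR, adjusted p = 1.000). The part of tissue in the Avp values of single libraries was not tested. Without the 3 libraries with markers of brainstem and spinal cord, Avp in BAC versus DNP was 3.13 ± 0.68 (edgeR, adjusted p = 1), with BAC 2 as the remaining BAC library, taken to vary like the other groups.

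Oxt, the precursor of oxytocin, lies beside Avp on chr2:130576173-130577054 (plus strand, ENSMUSG00000027301) and was close to the limit of detection. It had 6, 2 and 0 counts in CON, 3, 4 and 4 in DNP and 5, 10 and 16 in BAC. Where no read was counted, up to 3 counts remain possible, and this limit and the intervals below cover counting error only. The summed counts of BAC over those of CON, corrected for library size, gave a ratio of 3.81 (95% exact interval 1.71 to 9.58), and those of DNP over CON gave 1.36 (0.50 to 3.91). BAC 1 overlapped CON 1. In a fit without the filter on low counts, which covered 35095 genes, Oxt in BAC versus CON was 1.88 ± 0.80 on the log2 scale (edgeR, adjusted p = 0.778).

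Avp and Oxt did not keep a fixed proportion. Avp counts per Oxt count were 2.83 and 2.5 in CON 1 and CON 2, and CON 3 had no Oxt count. They were 11.7, 3.75 and 6 in DNP, and 24.8, 16.6 and 1.25 in BAC. BAC 3, which had the most Oxt counts of all libraries, had the lowest ratio, and BAC 1 the highest. The denominators of 2 to 16 counts leave these ratios imprecise.

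Gal encodes galanin, a peptide of hypothalamic neurons that promote fat intake and of noradrenergic neurons of the brainstem. It lies on chr19:3409915-3414544 (minus strand, 6 exons, ENSMUSG00000024907). It was counted 0, 0 and 1 times in CON, 43, 36 and 13 times in DNP and 119, 10 and 116 times in BAC. Every diabetic library lay above every CON library. The means were 0.0234 ± 0.0405 CPM in CON, 2.14 ± 1.16 in DNP and 5.55 ± 4.26 in BAC (n = 3 each, ± SD). The summed counts, 92 in DNP and 245 in BAC against 1 in CON, gave size-corrected ratios of 91.3 (95% exact interval 16 to 3644) and 241 (42.8 to 9543). Gal passed the filter on low counts only through its diabetic libraries, so that its tests against CON, by either tool, could come out in no other direction. The fitted log2 fold changes, which also depend on how a count near 0 is treated, were 6.08 ± 1.37 in DNP versus CON (edgeR, adjusted p = 0.294) and 7.45 ± 1.34 in BAC versus CON (adjusted p = 0.628). In BAC versus DNP the libraries overlapped, at 1.37 ± 0.83 (adjusted p = 0.998). DESeq2 gave Gal 6.42 with an adjusted p of 0.00350 in DNP versus CON and 7.80 with an adjusted p of 0.000177 in BAC versus CON.

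The 3 libraries with the most Gal counts, BAC 1, BAC 3 and DNP 1, were those with markers of brainstem and spinal cord. Dbh, the enzyme that makes noradrenaline, had 143 counts in DNP 1, 100 in BAC 1 and 145 in BAC 3, 4 to 13 in the other diabetic libraries, and 0 to 2 in CON. Slc6a2, the noradrenaline transporter, had 127 counts in DNP 1, 21 in BAC 1 and 89 in BAC 3, 0 in the other diabetic libraries, and 0 to 3 in CON. Without DNP 1, BAC 1 and BAC 3, Gal in DNP versus CON was 5.70 ± 1.05 (edgeR, adjusted p = 0.447), and the diabetic groups versus CON gave 5.08 ± 1.05 (adjusted p = 0.511). With BAC 2 alone in its group, BAC versus CON was 4.46 ± 1.27 (adjusted p = 0.939) and BAC versus DNP turned to -1.25 ± 1.03 (adjusted p = 1).

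Trh encodes thyrotropin-releasing hormone, which sets the thyroid axis from the paraventricular nucleus and is also made in the brainstem and olfactory bulb. It lies on chr6:92242061-92244650 (minus strand, 3 exons, ENSMUSG00000005892). Its counts were 37, 1 and 16 in CON, 32, 399 and 73 in DNP and 75, 91 and 175 in BAC. DNP 2 stood far above all other libraries and CON 2 far below them. DNP 1 lay within the CON range, and the BAC libraries lay above it. The means were 1.22 ± 1.19 CPM in CON, 11.5 ± 13.7 in DNP and 7.58 ± 3.01 in BAC (n = 3 each, ± SD). The log2 fold change by edgeR was 3.22 ± 1.11 in DNP versus CON (adjusted p = 0.377) and 2.62 ± 1.10 in BAC versus CON (adjusted p = 0.636). In BAC versus DNP it was -0.59 ± 1.00 (adjusted p = 0.998).

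The Trh value of DNP rested on DNP 2. Without it, DNP versus CON was 1.53 ± 0.91 (edgeR, adjusted p = 0.622) and BAC versus DNP turned to 1.09 ± 0.91 (adjusted p = 1.000). DNP 2 also had the highest counts of Th (821), the first enzyme of dopamine synthesis, and of Eomes (458), a marker of olfactory bulb projection neurons. In the other libraries Th had 21 to 707 counts, the most in BAC 3, and Eomes 3 to 197. Eomes was listed among the cerebellar markers, whose score was low in DNP 2 (-2.52). No list of olfactory bulb genes was measured. The part of tissue content in the Trh value was not tested.

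Cartpt encodes CART, a peptide that restrains feeding when made beside POMC and is expressed in many other neurons. It lies on chr13:99898489-99901091 (minus strand, 3 exons, ENSMUSG00000021647). The counts were 71, 6 and 57 in CON, 58, 164 and 100 in DNP and 80, 191 and 298 in BAC. CON 2 stood far below every other library, DNP 1 lay within the CON range, and each BAC library exceeded each CON library. The means were 3.05 ± 2.3 CPM in CON, 7.32 ± 3.56 in DNP and 12.6 ± 6.50 in BAC (n = 3 each, ± SD). By edgeR, Cartpt gave 1.26 ± 0.76 in DNP versus CON (adjusted p = 0.562), 2.04 ± 0.77 in BAC versus CON (adjusted p = 0.628) and 0.78 ± 0.74 in BAC versus DNP (adjusted p = 0.998). Without CON 2, the library with the highest cerebellar score, DNP versus CON was 0.74 ± 0.55 (edgeR, adjusted p = 0.700). BAC versus CON was then 1.53 ± 0.56 (adjusted p = 0.531).

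Pomc encodes the precursor of the anorexigenic alpha-MSH and of ACTH and beta-endorphin. It lies on chr12:3954951-3960642 (plus strand, 3 to 4 exons, ENSMUSG00000020660). It was counted 33, 23 and 23 times in CON, 156, 40 and 29 times in DNP and 43, 30 and 24 times in BAC. Apart from DNP 1, the libraries of the 3 groups covered much the same range. Pomc averaged 1.81 ± 0.324 CPM in CON, 5.31 ± 5.2 in DNP and 2.24 ± 0.818 in BAC (n = 3 each, ± SD). The log2 fold change in DNP versus CON was 1.54 ± 0.65 (edgeR, adjusted p = 0.429), and without DNP 1 it was 0.35 ± 0.39 (adjusted p = 0.794). BAC versus DNP was -1.25 ± 0.64 (adjusted p = 0.998), and without DNP 1 it was -0.05 ± 0.39 (adjusted p = 0.970).

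Pituitary genes were highest in the libraries with the most Pomc. Gh, growth hormone, had 141 counts in DNP 1 and 95 in BAC 1, and 0 to 22 in the others. Prl, prolactin, had 10 counts in DNP 1 and 12 in BAC 1, and at most 5 elsewhere. Cga had 6 counts in DNP 1 and was at 0 in the other libraries, Fshb was at 0 in all 9, and Tbx19, which marks the pituitary cells that make POMC, had 2 counts in DNP 1, 2 in BAC 2 and 0 elsewhere. The summed CPM of the 10 pituitary genes was 16.3 in DNP 1 and 12.7 in BAC 1, and 1.37 to 6.20 in the rest. Of these genes 2 passed the filter, and neither had an unadjusted p under 0.05 in a comparison. The part of pituitary tissue in the Pomc value was not tested.

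Agrp encodes agouti-related peptide, the antagonist of melanocortin receptors that drives feeding. Its annotated gene spans chr8:105566698-105637393 (minus strand, 5 to 6 exons, ENSMUSG00000005705), and 114 exonic bases (11.3%) are shared with Ctcf on the opposite strand and with Gm5914 on the same strand, whose reads unstranded libraries cannot separate. Agrp was counted 9, 13 and 14 times in CON, 8, 5 and 7 times in DNP and 11, 10 and 9 times in BAC. The means were 0.836 ± 0.209 CPM in CON, 0.460 ± 0.119 in DNP and 0.685 ± 0.116 in BAC (n = 3 each, ± SD). The lowest CON library (0.597 CPM) and the highest DNP library (0.579 CPM) nearly met, and as FPKM, which carries no TMM factor, their order was the reverse, at 0.487 and 0.502. The log2 fold change was -0.85 ± 0.38 in DNP versus CON (edgeR, adjusted p = 0.454), -0.28 in BAC versus CON (adjusted p = 0.869) and 0.57 ± 0.39 in BAC versus DNP (adjusted p = 0.998). Each library held 5 to 14 counts of Agrp, and the DNP libraries at most 8. Agrp thus passed the filter on low counts only through CON and BAC libraries, which tilts its DNP comparisons towards a lower DNP value.

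Npy encodes neuropeptide Y, made beside AgRP in the arcuate nucleus and by interneurons throughout the forebrain. It lies on chr6:49822710-49829507 (plus strand, 4 exons, ENSMUSG00000029819). Counts were 735, 155 and 698 in CON, 128, 1131 and 975 in DNP and 210, 787 and 195 in BAC. High and low libraries occurred in each group, and the groups overlapped fully. Npy averaged 36.3 ± 21.8 CPM in CON, 50.2 ± 36.0 in DNP and 27.3 ± 23.5 in BAC (n = 3 each, ± SD). By edgeR the log2 fold change was 0.47 ± 0.87 in DNP versus CON (adjusted p = 0.886), -0.41 in BAC versus CON (adjusted p = 0.920) and -0.88 ± 0.87 in BAC versus DNP (adjusted p = 0.998). The 4 libraries with the fewest Npy counts, CON 2, DNP 1, BAC 1 and BAC 3, were those in which the forebrain markers summed to 67.5 CPM or less. With the forebrain list as a covariate, chosen after the data were seen, BAC versus CON was 0.53 and BAC versus DNP 0.35. In neither comparison did Npy have an adjusted p under 0.05 under any alternative. In the opposite direction to Agrp, the Npy mean was highest in DNP, but neither gene passed the test.

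Hcrt and Pmch encode the precursors of the orexins and of melanin-concentrating hormone, which are made by separate neurons of the lateral hypothalamus. Both peptides promote feeding, while orexins sustain wakefulness and melanin-concentrating hormone promotes sleep. Hcrt lies on chr11:100761069-100762931 (minus strand, ENSMUSG00000045471) and Pmch on chr10:88091072-88092375 (plus strand, ENSMUSG00000035383). Hcrt had 1, 0 and 2 counts in CON, 2, 3 and 6 in DNP and 0, 2 and 8 in BAC. Pmch had 2, 0 and 1 counts in CON, 5, 2 and 32 in DNP and 2, 2 and 44 in BAC. DNP 3 and BAC 3 were the highest libraries of their groups for both genes, and the remaining libraries held at most 3 Hcrt and 5 Pmch counts. The size-corrected ratio of summed Pmch counts was 12.9 for DNP over CON (95% exact interval 4.1 to 65.2) and 15.7 for BAC over CON (5.07 to 78.9), set by 1 library in each diabetic group. For Hcrt the ratios were 3.64 (0.961 to 20.3) and 3.27 (0.843 to 18.5), and both intervals include 1. The intervals of both genes cover counting error only and leave out variation between mice, so they do not test the groups. In the unfiltered fit, Pmch in the diabetic groups versus CON was 3.63 ± 1.49 (edgeR, adjusted p = 0.652). On the opposite strand, Parpbp shares 435 exonic bases with Pmch (58.1% of its exonic length), and the unstranded reads of the pair cannot be told apart.

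**Figure D3:**
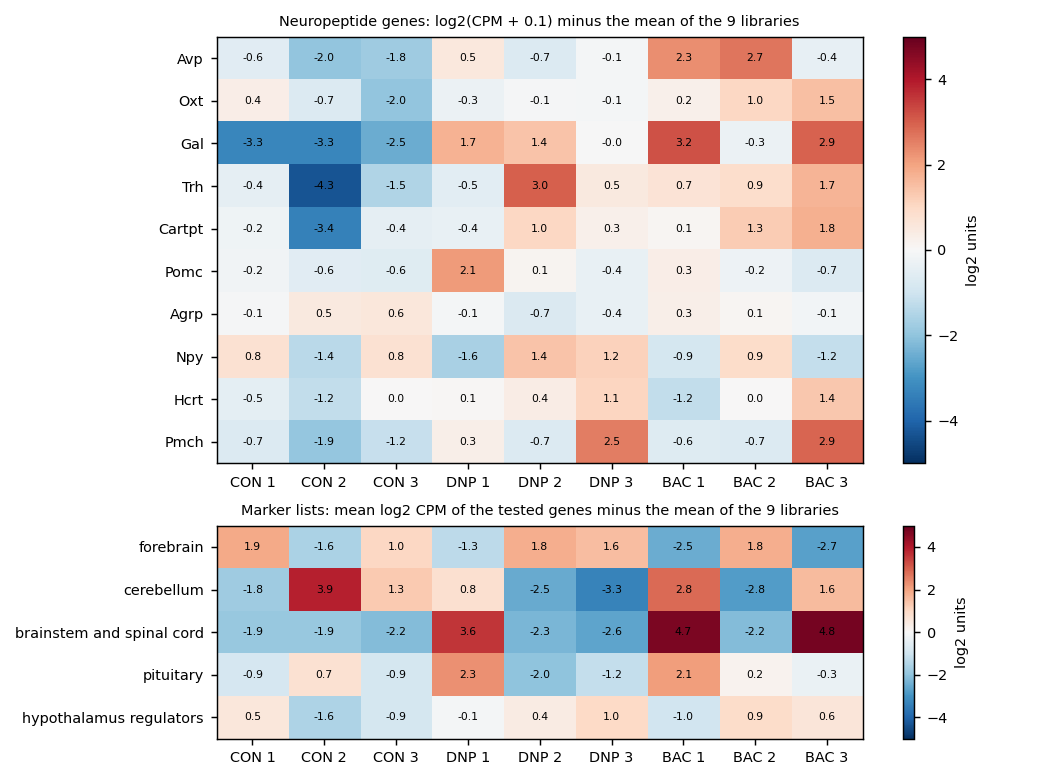
The upper grid shows log2(CPM + 0.1) of each neuropeptide gene in each library minus its mean over the 9 libraries, and the lower grid the mean log2 CPM of marker lists treated likewise; red is above and blue below the mean. Gal is high where the brainstem and spinal cord list is high (DNP 1, BAC 1, BAC 3). It is also high in DNP 2 (1.42), where that list is low (-2.30). Npy is low where the forebrain list is low, and Pomc is highest in DNP 1, where the pituitary list is highest.

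Of 19 genes for receptors of these peptides, 13 were tested, and 0 had an adjusted p under 0.05 by edgeR in any comparison. In the diabetic groups versus CON, 1 of the 13 was higher at an unadjusted p under 0.05, a share near the 6.42% of all genes: Avpr1a, the vascular and brain vasopressin receptor, which had 2, 1 and 4 counts in CON, 28, 6 and 2 in DNP and 24, 9 and 26 in BAC (2.66 ± 0.94, adjusted p = 0.352). Avpr1a was highest in DNP 1, BAC 3 and BAC 1, the libraries with markers of brainstem and spinal cord. It passed the filter on low counts only through these libraries, which fixes the direction of its test in the diabetic groups versus CON. Hcrtr1, an orexin receptor, had 36, 8 and 34 counts in CON, 125, 48 and 38 in DNP and 44, 32 and 157 in BAC, with its maxima in DNP 1 and BAC 3. Galr1, a galanin receptor, had 6, 15 and 4 counts in CON, 19, 3 and 4 in DNP and 48, 14 and 41 in BAC, and BAC versus DNP was 1.93 ± 0.82 (adjusted p = 0.998). Npy1r, the postsynaptic NPY receptor, was low in the same libraries as Npy, with 76 counts in CON 2, 130 in DNP 1, 99 in BAC 1 and 134 in BAC 3, and 325 to 467 in the others. The median log2 fold change of the 13 receptors was 0.37 in the diabetic groups versus CON, and that of all genes -0.01.

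The genes that cut and store peptide precursors were abundant, and all 12 were tested. In the diabetic groups versus CON, 2 were higher and 2 lower at an unadjusted p under 0.05, beside 6.42% and 5.42% of all genes, and 0 passed the adjusted threshold by edgeR. Scg2, secretogranin II, a granule protein, had 1987, 1528 and 1878 counts in CON, 4450, 3790 and 2027 in DNP and 3604, 2901 and 6266 in BAC. The diabetic libraries did not overlap the CON libraries (1.07 ± 0.31, adjusted p = 0.329), but DNP 3 (133.1 CPM) and CON 3 (131.9 CPM) nearly met. Scg5, a chaperone of the protease PC2, also lay above CON in every diabetic library (0.30 ± 0.15, adjusted p = 0.461). Its nearest libraries were BAC 1 (132.4 CPM) and CON 1 (129.9 CPM). Over all genes, 3.82% lay above CON without overlap. Chga, chromogranin A, was 0.75 ± 0.27 higher, whereas Chgb, chromogranin B, was lower (-0.52 ± 0.16), as was Cadps2, a factor of granule release (-1.19 ± 0.34). Cadps2 and Chgb had their highest counts in CON 2 (3483 and 8882), the library with the highest cerebellar score. The proteases Pcsk1 and Pcsk2 and the carboxypeptidase Cpe did not pass even the unadjusted threshold in the diabetic groups versus CON.

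Among 8 receptors and regulators through which the brain reads peripheral metabolic signals, 2 were higher in the diabetic groups at an unadjusted p under 0.05, beside 6.42% of all genes, and 0 after adjustment (edgeR). Calcr, the calcitonin receptor, which also forms the amylin receptor, had 3, 0 and 0 counts in CON, 43, 17 and 5 in DNP and 24, 24 and 81 in BAC (4.76 ± 1.15, adjusted p = 0.304). Glp1r, the GLP-1 receptor, had 2, 0 and 0 counts in CON, 38, 6 and 3 in DNP and 34, 9 and 46 in BAC (4.78 ± 1.34, adjusted p = 0.323). Like Gal, both lay above CON in every diabetic library, and like Gal they passed the filter on low counts only through the diabetic libraries, which fixes the direction of these tests. Calcr was highest in BAC 3 and DNP 1, and Glp1r in BAC 3, DNP 1 and BAC 1, the libraries with markers of brainstem and spinal cord. Lepr, the leptin receptor, had 73, 37 and 70 counts in CON, 40, 45 and 46 in DNP and 93, 59 and 81 in BAC, and was 0.82 ± 0.30 higher in BAC versus DNP (adjusted p = 0.998), without overlap. Gipr, the receptor of the incretin GIP, had 81, 39 and 41 counts in CON, 101, 172 and 98 in DNP and 39, 74 and 74 in BAC. Its log2 fold change was 1.21 ± 0.38 in DNP versus CON (adjusted p = 0.354) and -1.01 ± 0.37 in BAC versus DNP (adjusted p = 0.998), both without overlap. Those 2 comparisons share the DNP libraries. In DNP versus CON, 4 of the 8 genes were higher without overlap, Calcr and Glp1r among them, beside 9.59% of all genes. In BAC versus DNP, 1 was higher and 1 lower without overlap, beside 3.38% and 3.41% of all genes.

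Other peptides of the hypothalamus were measured beside the 10. Of 14, 7 were tested, and in the diabetic groups versus CON 2 were higher at an unadjusted p under 0.05, beside 6.42% of all genes, and 0 after adjustment (edgeR). Nts, neurotensin, had 34, 6 and 36 counts in CON, 43, 79 and 32 in DNP and 81, 119 and 122 in BAC (1.54 ± 0.53, adjusted p = 0.351). Adcyap1, the precursor of PACAP, had 148, 83 and 131 counts in CON, 403, 258 and 120 in DNP and 288, 148 and 549 in BAC (1.26 ± 0.49, adjusted p = 0.380). Crh, the precursor of corticotropin-releasing hormone, had 61, 10 and 68 counts in CON, 103, 91 and 93 in DNP and 46, 75 and 259 in BAC. In DNP it lay above CON without overlap (1.05 ± 0.72, adjusted p = 0.615), beside 9.59% of all genes. Among 10 genes of vasopressin and oxytocin neurons, 9 were tested and 2 were higher in the diabetic groups at an unadjusted p under 0.05, again beside 6.42% of all genes. They were Slc17a6, a vesicular glutamate transporter (1.99 ± 0.87), and Th (2.5 ± 1.04), and neither is limited to these neurons. Slc17a6 had 2641 counts in DNP 1, 2156 in BAC 1 and 3817 in BAC 3, the libraries with markers of brainstem and spinal cord, and 228 to 700 in the other diabetic libraries, beside 373 to 410 in CON. Creb3l1, a transcription factor of vasopressin neurons, had 43 to 53 counts in CON, 18 to 79 in DNP and 25 to 44 in BAC, and so did not follow Avp.

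The genes whose log2 CPM ran closest to each neuropeptide over the 9 libraries were found for the 7 tested genes among 16782 or 16783 genes with a mean of at least 1 CPM. With Pearson's r, they were Rabl3, Wtap and Ctso for Avp (0.935, 0.897 and 0.884), Txndc16, Sptssa and Rps3a2 for Gal (0.965, 0.965 and 0.958) and Diaph3, Gna15 and Stoml3 for Trh (0.973, 0.961 and 0.944). They were Tmem91, Cetn2 and Asnsd1 for Cartpt (0.973, 0.972 and 0.965) and Rit1, Abhd11 and Tssc4 for Pomc (0.968, 0.919 and 0.907). For Agrp they were Polr3a, D830024N08Rik and BC005561 (0.973, 0.969 and 0.943), and for Npy Ttc7, Zfp40 and Traip (0.992, 0.986 and 0.984). The points share libraries, depth and tissue content, so they are given as a description.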

How the data were processed

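Poly(A) RNA from whole brains (3 mice in each of CON, DNP and BAC) was sequenced as unstranded paired-end libraries, and groups were taken from the labels. The authors checked reads with FastQC 0.11.9, trimmed them with fastp, aligned them to GRCm38 with HISAT2 2.1.0 and quantified genes with StringTie 1.3.3b, with Bowtie2 2.3.4.1 also named. How multi-mapping reads were counted is not given in the sources used here. The deposited tables hold raw counts and FPKM. Each deposited FPKM value equals the count divided by a gene length and the library total (lengths implied by different libraries differed by a factor of at most 1.0000912 over 15521 genes), so it carries no TMM factor.

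Counts were fitted in R 4.3.3 with edgeR 4.0.16 (filterByExpr with a minimum count of 10, TMM, quasi-likelihood test, all 9 libraries in a single model with group as factor, Benjamini-Hochberg adjustment over 18501 genes, threshold 0.05). The standard error is the absolute log2 fold change divided by the square root of F. Replicates are separate mice. Precision was set by totals of 13107382 to 16008129 counts and by variation between mice (biological coefficient of variation 36.5%). Alternatives were DESeq2 1.42.0, other scalings, no filter, limma 3.58.1 on log2(FPKM + 1) and log2(FPKM + 0.1), a replicate block, hypothalamic regulators as a covariate and each library left out. Fits with forebrain or brainstem markers as a covariate, or without DNP 1, BAC 1 and BAC 3, were chosen after seeing the data. Scores of lists, also where used as a covariate, hold only the genes of the list that passed the filter. The pipeline was tested on simulated data. Same-numbered libraries were checked for pairing. The 10 genes and the 14 lists (135 genes) were chosen with earlier results of these data known. The rule for named genes covered the 10, the 3 closest genes by correlation of each tested member, the receptors and list genes whose groups did not overlap. Of the receptors and list genes only some are printed, picked after their values were seen, and genes outside the rule, such as Pcsk1, Pcsk2, Cpe, Dbh, Slc6a2, Eomes, Sim1 and Creb3l1, were named after their values were seen. Apart from these choices, 1 listed gene is not reported here. Ratios of summed counts carry exact 95% Poisson intervals. Positions come from GENCODE M21 (GRCm38) and promoter windows from RefSeq.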

Additional observations from a re-analysis of the deposited data

How the results depend on the processing

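The number of the 7 genes called was 0 in all 4 comparisons under 19 of 20 alternatives. DESeq2 called 1 in DNP versus CON, 2 in BAC versus CON and 3 in the diabetic groups versus CON. Over the alternatives, the adjusted p of Gal in the diabetic groups versus CON ranged from 0.000282 to 0.669 and that of Avp in BAC versus CON from 0.00762 to 0.939. For Trh in the diabetic groups versus CON it ranged from 0.0470 to 0.672. On the log2(FPKM + 1) scale, which understates changes of low genes, Gal in the diabetic groups versus CON was 2.29. Recomputed under the alternatives, 529 fold changes kept their direction and side of the threshold, 6 passed it under DESeq2, and 25 changed sign.

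For the changes of sign listed here the cause was not tested. Npy in the diabetic groups versus CON (0.03) was -0.039 and -0.043 with limma (pseudocounts of 1 and 0.1), -0.39 with a replicate block, -0.82 with hypothalamic regulators as covariate, and ranged from -0.47 to 0.31 with a library left out, being -0.41, -0.20, -0.08 and -0.47 without CON 2, DNP 2, DNP 3 and BAC 2. In DNP versus CON, Npy was -0.50 with the hypothalamic covariate. With the forebrain and brainstem covariates, Npy was 0.35 and 0.32 in BAC versus DNP. In BAC versus CON it was 0.53 and 0.93 with these covariates, and 0.58 without DNP 1, BAC 1 and BAC 3. Trh in BAC versus DNP was 0.015 and 0.11 with limma (pseudocounts of 1 and 0.1), 1.09 without DNP 2 (range with a library left out -1.07 to 1.09), 0.62 with the forebrain covariate and 0.088 with the brainstem covariate. Gal in BAC versus DNP was -1.25 without the 3 libraries, -0.16 with the forebrain covariate and -0.10 with the brainstem covariate. Pomc in BAC versus CON was -0.028 without BAC 1 (range with a library left out -0.028 to 0.51), -0.045 with the forebrain covariate and -0.49 with the brainstem covariate.

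Replicate numbers did not pair the samples: 3 of 9 same-numbered pairs correlated over 0.1 (r from -0.579 to 0.560), and 2 of 9 libraries correlated best with their own number. With a replicate block, 0 of the 7 genes were called in each comparison, and in DNP versus CON the number with an unadjusted p under 0.05 was 2, against 3 without the block. Counts under 20 per library for Agrp, Oxt and Hcrt limit what can be seen at this depth, and the uneven tissue content of 9 libraries limits each comparison between groups.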
